A study of Mus musculus with 42 samples.

Results

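The NRF2 antioxidant response genes described here were 10 of the 54446 genes counted in mouse liver. They were given by name, as the transcription factor NRF2 (gene Nfe2l2), its inhibitor Keap1 and 8 genes that NRF2 is known to switch on or that share their task, namely Gclc, Gclm, Gsr, Txnrd1, Srxn1, Nqo1, G6pdx and Sod1. Each name matched a gene identifier in the counts.

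Liver RNA of 42 female APOE*3-Leiden mice, which carry a human APOE variant that makes plasma cholesterol respond to diet, was sequenced with 1 library per mouse. All 3 groups carried the transgene, so no mouse without it was compared. The chow group (n = 10) was kept on a maintenance diet as the healthy reference, and the age of these mice at the start was not given in the sources used here. The WTD group (n = 16) started at 8 to 14 weeks of age on a Western-type diet with 15% cocoa butter, 40.5% sucrose and 1% cholesterol by weight. The diet ran for 3 weeks before week 0 and on to the endpoint at 32 weeks, with 0.05% sodium cholate added from week 22. The WTD+atorvastatin group (n = 16) also started at 8 to 14 weeks of age and received the same diet. The statin atorvastatin was mixed in, at 3.0 mg per kg body weight per day from week 0 and 4.5 mg per kg per day from week 5. The names of the chow mice start with AZ and those of both WTD groups with Gen, so anything the prefix stands for cannot be told apart from the diet.

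NRF2 is a transcription factor that is made continuously and destroyed as quickly, because KEAP1 holds it in the cytoplasm and passes it to a ubiquitin ligase. Oxidants and reactive lipids modify cysteines of KEAP1, newly made NRF2 then reaches the nucleus and pairs with a small MAF protein, and the pair binds antioxidant response elements in front of its target genes. NRF2 is therefore controlled mainly at the level of the protein, and RNA levels of its targets are the usual readout. In liver the targets make and recycle glutathione, run the thioredoxin system, detoxify quinones and supply NADPH.

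The start regions of the genes are shown because the core of the antioxidant response element can be looked for in them directly. The core searched was TGACNNNGC on both strands, which reads GCNNNGTCA on the minus strand. RefSeq start regions of assembly GRCm38.p6, each 250 bases before to 50 bases after a start, were at hand for 8 of the 10 genes in 10 windows, while Gclc and Gsr had none in the table. The core was present in 6 of these windows, in 1 each of Nfe2l2, Gclm, Txnrd1, Srxn1, G6pdx and Sod1. It was found in 12.4% of all 32851 windows of the same length. The stretches below run 5′ to 3′ on the strand of the gene over 150 bases, with the match in capitals.
Nfe2l2, chr2:75704764-75704913, minus strand: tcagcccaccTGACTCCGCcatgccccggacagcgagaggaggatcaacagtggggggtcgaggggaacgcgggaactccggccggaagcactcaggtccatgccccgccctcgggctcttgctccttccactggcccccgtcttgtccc
Gclm, chr3:122245407-122245556, plus strand: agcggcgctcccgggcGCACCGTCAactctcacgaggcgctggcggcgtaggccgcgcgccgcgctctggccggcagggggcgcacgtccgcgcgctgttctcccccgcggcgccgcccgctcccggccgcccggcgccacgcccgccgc
Txnrd1, chr10:82859056-82859205, plus strand: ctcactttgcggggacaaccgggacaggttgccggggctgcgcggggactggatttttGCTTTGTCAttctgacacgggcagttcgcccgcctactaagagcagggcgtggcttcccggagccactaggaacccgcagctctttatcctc
G6pdx, chrX:74428881-74429030, minus strand: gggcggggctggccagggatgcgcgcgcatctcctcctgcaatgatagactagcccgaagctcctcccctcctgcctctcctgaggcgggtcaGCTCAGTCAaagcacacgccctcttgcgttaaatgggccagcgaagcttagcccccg
Sod1, chr16:90220612-90220761, plus strand: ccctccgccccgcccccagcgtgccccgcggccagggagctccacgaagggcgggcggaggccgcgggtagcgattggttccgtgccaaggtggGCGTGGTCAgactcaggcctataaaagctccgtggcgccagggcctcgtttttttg

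Counted from the start, the first base of the match was at -240 in Nfe2l2, -134 in Gclm, -92 in the second of 3 Txnrd1 starts, -57 in G6pdx and -56 in Sod1. In Srxn1 the match began 28 bases after the start. The windows of Nqo1 and Keap1 and those of the other Txnrd1 starts held no such letters. A match describes letters only, and binding was not measured.

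Between 15661381 and 36224054 counts per mouse fell on genes, and levels are given as CPM, counts relative to the library size after TMM scaling. In 9 libraries (3 chow, 5 WTD and 1 WTD+atorvastatin) over 20% of the genes at 1 to 2 CPM in their group had no count, and all comparisons were repeated without these low-capture libraries. Hepatocyte markers summed to 99470 to 149230 CPM on chow, 47265 to 97861 on WTD and 56881 to 120430 with atorvastatin, and none of the 6 markers was at 0 in any mouse. Of the 54446 genes, 15574 passed the filter on low counts, all 10 NRF2 genes among them. Fold changes, standard errors (SE) and adjusted p values come from the quasi-likelihood test of edgeR over all tested genes, and a gene is called at an adjusted p under 0.01.

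Per kilobase of annotated exon, Sod1 was the highest of the 10 genes in each group, with a median of 204 CPM per kb on chow, 96.6 on WTD and 112 with atorvastatin. G6pdx was the lowest, with medians of 1.33, 6.81 and 6.63 CPM per kb. On chow the order of medians between them was Gclc, Gclm, Nfe2l2, Txnrd1, Srxn1, Gsr, Keap1 and Nqo1, from 79.5 down to 10.8 CPM per kb. The steps from Sod1 to Gclc, Gclc to Gclm, Gclm to Nfe2l2, Keap1 to Nqo1 and Nqo1 to G6pdx held in 10 of 10 chow mice. Txnrd1, Srxn1 and Gsr did not differ beyond their spread on chow, since Txnrd1 exceeded Srxn1 in 3 of 10 mice and Srxn1 exceeded Gsr in 6 of 10. The length used is the union of all annotated exons of a gene, 3970 bases for Sod1 and 3766 for Gclc. It can exceed the length of the transcripts present, so the order between genes depends on this choice.

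Sod1 and Gclc ranked 1 and 2 of 10 in every group. By this measure they came closer on WTD, where Sod1 exceeded Gclc in 10 of 16 mice, with a mean difference of 6.18 ± 23.0 CPM per kb (SD). In treated mice Sod1 exceeded Gclc in 10 of 16. Srxn1 ranked 3 of 10 in both WTD groups and 6 of 10 on chow. It exceeded Nfe2l2, the next lower gene, in 15 of 16 WTD mice but in 9 of 16 treated mice.

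WTD was compared with chow to ask how these genes differed at week 32 between mice on the Western-type diet and mice on chow. Transcripts of Nfe2l2 itself and of Txnrd1, Srxn1, Nqo1 and G6pdx rose, those of Sod1 and Gclm fell, and Keap1, Gclc and Gsr did not pass the test. The strongest rise was that of G6pdx at 4.12-fold, and Sod1 was 2.05-fold lower. Thus 5 of 10 genes were higher and 2 of 10 lower, where 17.5% of all tested genes were higher and 16.0% were lower. The median log2 fold change of the 10 genes was 0.36, against 0.03 over all tested genes. Without the low-capture libraries the same 7 genes were called. In whole liver, fewer cells of a type and less RNA per cell cannot be told apart.

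Markers of other cells moved in the same comparison. Macrophage markers were called higher in 7 of 8 cases, and their summed level went from 319 to 488 CPM on chow to 1494 to 3093 CPM on WTD. Stellate cell and fibroblast markers were higher in 5 of 6 cases, from sums of 342 to 535 CPM to sums of 931 to 2397 CPM. Cholangiocyte markers were higher in 4 of 4 cases, neutrophil markers in 3 of 3 tested, lymphocyte markers in 1 of 4, and endothelial markers were higher in 1 and lower in 1 of 4. Hepatocyte markers were lower in 6 of 6 cases. No macrophage or stellate cell marker was at 0 in any mouse, and the part of these shifts in the changes of the NRF2 genes was not tested.

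**Figure D1:**
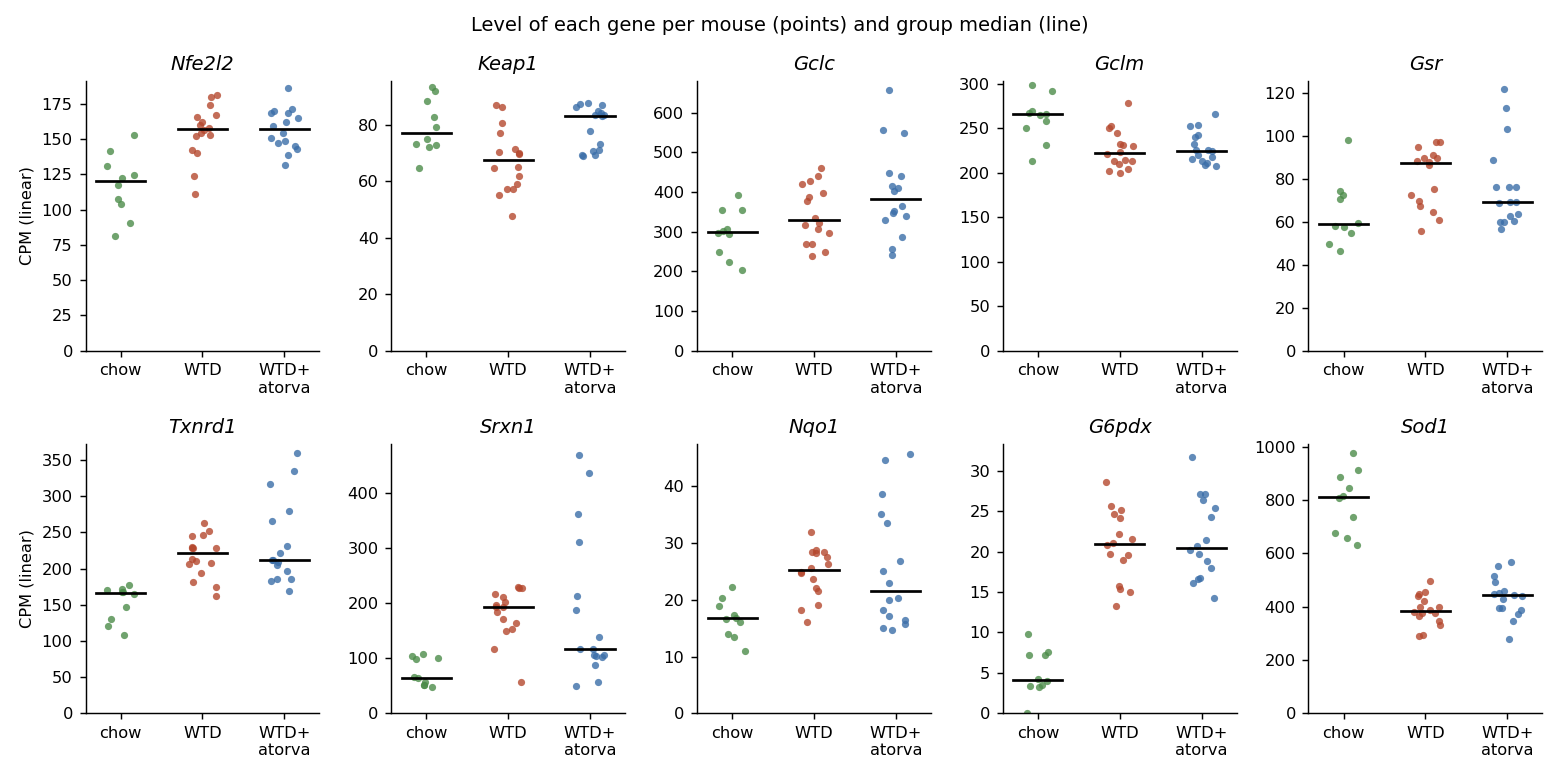
Level of each of the 10 genes in CPM (vertical axis, linear and starting at 0) in each mouse of the 3 groups, chow (n = 10), WTD (n = 16) and WTD+atorvastatin (n = 16). Points are mice and lines are group medians, and the points of chow and WTD do not overlap for G6pdx and Sod1.

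Of the regulators, Nfe2l2 (ENSMUSG00000015839.6, GRCm38 chromosome 2, 75675513 to 75704641) had a lowest, median and highest level of 81.1, 120 and 153 CPM on chow. On WTD these values were 111, 157 and 181 CPM, and 11 of 16 WTD mice lay above every chow mouse. Nfe2l2 RNA rose 1.32-fold (log2 fold change 0.40, SE 0.08, adjusted p = 3.82e-05). Keap1 (ENSMUSG00000003308.15, chromosome 9, 21229730 to 21239361), the adaptor that delivers NRF2 for degradation, had 64.8, 77.0 and 93.1 CPM on chow and 47.7, 67.4 and 86.8 CPM on WTD. The groups overlapped, although 7 of 16 WTD mice lay below every chow mouse. Its log2 fold change was -0.23 (95% interval -0.39 to -0.07, adjusted p = 0.0133). Limma-voom, which called 41.8% of all tested genes in this comparison, called this difference (adjusted p = 0.00505), as did edgeR when chow mouse 2 or WTD mouse 5, 11, 19 or 20 was left out (adjusted p 0.00467 to 0.00916).

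The first step of glutathione synthesis is catalysed by glutamate-cysteine ligase, with Gclc as its catalytic and Gclm as its modifier subunit. Gclc (ENSMUSG00000032350.9, chromosome 9, 77754535 to 77794485) ranged from 203 over a median of 299 to 393 CPM on chow and from 238 over 328 to 461 CPM on WTD. Its groups overlapped widely, and the log2 fold change was 0.21 (95% interval -0.06 to 0.48, adjusted p = 0.202). Gclm (ENSMUSG00000028124.15, chromosome 3, 122245557 to 122270732) ranged from 213 over 266 to 298 CPM on chow and from 200 over 222 to 278 CPM on WTD. Although the ranges overlapped, 15 of 16 WTD mice lay below the chow median. Gclm fell 1.15-fold (log2 fold change -0.21, SE 0.06, adjusted p = 0.00421). This small difference lost its call with RLE scaling (adjusted p = 0.0203), without a filter, with at least 10 counts in every mouse and in a fit of the 2 groups alone (adjusted p 0.0122 to 0.0295), and without chow mouse 3 or 7 (adjusted p 0.0125 to 0.0138).

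Gsr (ENSMUSG00000031584.16, chromosome 8, 33652523 to 33698163) encodes glutathione reductase, which uses NADPH to return oxidised glutathione to its reduced form. It had 46.5, 58.8 and 98.2 CPM on chow and 55.8, 87.3 and 97.2 CPM on WTD as lowest, median and highest levels. The chow mouse with the highest level, mouse 5, one of the low-capture libraries, exceeded every WTD mouse, while 15 of 16 WTD mice lay above the chow median. The log2 fold change of Gsr was 0.33 (95% interval 0.09 to 0.57, adjusted p = 0.0226), and without chow mouse 5 it was 0.41 and called (adjusted p = 0.00306), while without all 9 low-capture libraries it was 0.40 and not called (adjusted p = 0.0104). Limma-voom, the filter of at least 10 counts in every mouse and the fit of the 2 groups alone also called it (adjusted p 0.00323 to 0.00996).

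In the thioredoxin system, Txnrd1 and Srxn1 both rose. Txnrd1 (ENSMUSG00000020250.10, chromosome 10, 82833951 to 82897712), the cytosolic thioredoxin reductase, had 109, 166 and 178 CPM on chow and 163, 221 and 263 CPM on WTD. In 14 of 16 WTD mice its level was above that of every chow mouse. It was 1.42-fold higher (log2 fold change 0.51, SE 0.11, adjusted p = 6.89e-05). Srxn1 (ENSMUSG00000032802.8, chromosome 2, 152105516 to 152111376), sulfiredoxin, repairs overoxidised peroxiredoxins. Its lowest, median and highest levels were 47.6, 65.1 and 107 CPM on chow and 57.6, 194 and 230 CPM on WTD. Only WTD mouse 20, at 57.6 CPM, lay within the chow range. Srxn1 rose 2.41-fold (log2 fold change 1.27, SE 0.30, adjusted p = 0.000593).

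Nqo1 (ENSMUSG00000003849.8, chromosome 8, 107388225 to 107403206), a quinone reductase and a classical readout of NRF2, was weakly expressed, with 10.9, 16.8 and 22.3 CPM on chow. On WTD it had 16.2, 25.3 and 32.0 CPM, and 11 of 16 mice exceeded every chow mouse. It was 1.48-fold higher (log2 fold change 0.57, SE 0.16, adjusted p = 0.00348). G6pdx (ENSMUSG00000031400.10, chromosome X, 74409483 to 74429194) encodes glucose-6-phosphate dehydrogenase, the entry to the pentose phosphate pathway and a source of the NADPH that Gsr and Txnrd1 use. Its levels were 0, 4.10 and 9.86 CPM on chow and 13.3, 21.0 and 28.6 CPM on WTD, so the groups did not overlap. The level of 0 belonged to chow mouse 2, one of the low-capture libraries, and the other chow mice had counts. G6pdx rose 4.12-fold (log2 fold change 2.04, SE 0.26, adjusted p = 6.27e-09).

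Sod1 (ENSMUSG00000022982.10, chromosome 16, 90220754 to 90226329), the copper and zinc superoxide dismutase that turns superoxide into hydrogen peroxide, moved the other way. It had 631, 811 and 976 CPM on chow and 292, 384 and 496 CPM on WTD, and every WTD mouse lay below every chow mouse. Sod1 fell 2.05-fold (log2 fold change -1.03, SE 0.09, adjusted p = 3.53e-14). G6pdx and Sod1 were the 2 of 10 genes whose groups did not overlap, and this held for 5.83% of all tested genes. The highest Sod1 level on WTD was that of mouse 20, which also had the lowest Srxn1, Txnrd1 and Gsr levels of its group, at 57.6, 163 and 55.8 CPM. This was one of the low-capture libraries, with 21.9% of the weakly expressed genes at no count. Its hepatocyte markers summed to 97861 CPM, the highest sum on WTD, and its macrophage markers to 1494 CPM, the lowest.

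**Figure D2:**
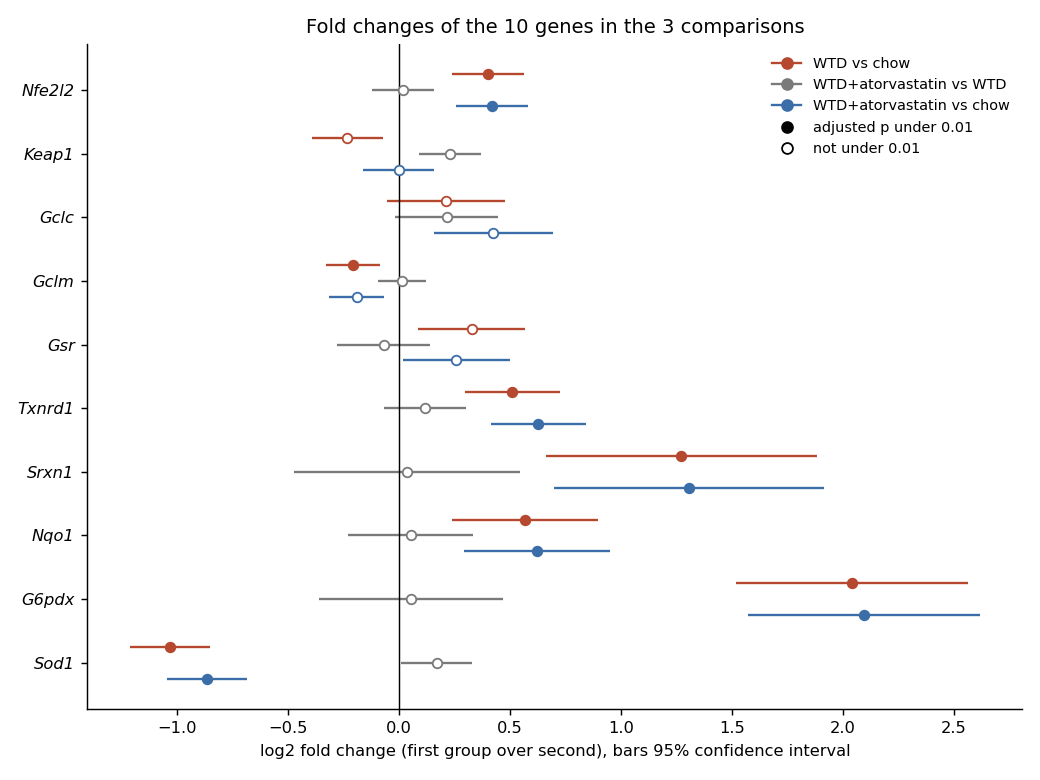
Log2 fold change (horizontal axis, first group over second) of the 10 genes in the 3 comparisons, with 95% confidence intervals computed from the edgeR test as bars. Filled points have an adjusted p under 0.01. The intervals of atorvastatin-treated against WTD mice lie around 0, those of Keap1 and Sod1 just above it.

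WTD+atorvastatin compared with WTD asks what the drug changed on the same diet. None of the 10 genes was called by edgeR, where 4.84% of all tested genes were higher and 2.26% lower. Keap1 and Sod1, 2 of the 10, had an unadjusted p under 0.05, as had 24.5% of all tested genes. DESeq2 called 0 of the 10 and 5.28% of the genes it tested, and limma-voom called Keap1 and Sod1 and 20.2% of all tested genes, so 2 of 10 is close to the share over all genes. The median log2 fold change of the 10 genes was 0.05, against 0.00 over all tested genes, of which 754 were higher and 352 lower. With RLE scaling 582 were higher and 479 lower. Macrophage markers were lower in 5 and higher in 1 of 8 cases, and stellate cell markers were lower in 3 of 6 cases, while hepatocyte markers were higher in 5 of 6. Endothelial markers were higher in 1 of 4 cases, and 0 of 3 tested neutrophil, 0 of 4 lymphocyte and 0 of 4 cholangiocyte markers were called.

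Keap1 came closest to a call. It had 68.8, 83.1 and 87.7 CPM with atorvastatin as lowest, median and highest levels, and 16 of 16 treated mice lay above the WTD median of 67.4 CPM, although the ranges overlapped. Its log2 fold change was 0.23 (95% interval 0.09 to 0.37, adjusted p = 0.0186). It was called by limma-voom (adjusted p = 0.000427) and by edgeR without WTD mouse 5 or 11 (adjusted p 0.00717 to 0.0072). Sod1 had 281, 443 and 566 CPM with atorvastatin, and 13 of 16 treated mice exceeded the WTD median. Its log2 fold change was 0.17 (95% interval 0.01 to 0.33, adjusted p = 0.171), and limma-voom called it (adjusted p = 0.00753).

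For the other 8 genes the intervals bound the difference as estimated by edgeR. They were -0.12 to 0.16 for Nfe2l2, -0.09 to 0.12 for Gclm, -0.07 to 0.30 for Txnrd1 and -0.28 to 0.14 for Gsr, all on the log2 scale. They were wider for Gclc (-0.02 to 0.45), Nqo1 (-0.23 to 0.33), G6pdx (-0.36 to 0.47) and Srxn1 (-0.47 to 0.54). For Srxn1 and Gsr the log2 differences of medians, at -0.73 and -0.33, lay outside these intervals. In 12 of 16 treated mice Gsr was below the WTD median of 87.3 CPM (adjusted p = 0.496 by a rank-sum permutation test). Without the low-capture libraries the log2 fold change of Gclc went from 0.21 to 0.10 and that of Txnrd1 from 0.12 to 0.07. These genes are not shown to be equal in the 2 groups.

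Nfe2l2 had 131, 157 and 186 CPM with atorvastatin and Gclm had 208, 225 and 266 CPM, where the WTD medians were 157 and 222 CPM. G6pdx had 14.3, 20.4 and 31.7 CPM, with a median of 21.0 CPM on WTD. The treated and WTD ranges overlapped in all 3 genes.

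Srxn1 differed in its spread. The treated mice had a lowest, median and highest level of 50.3, 117 and 469 CPM. In 11 of 16 treated mice Srxn1 was below the WTD median of 194 CPM, and in 4 of 16 it was above every WTD mouse. Its mean was 186 ± 135 CPM (SD) with atorvastatin and 181 ± 45.9 CPM on WTD, a fold of 1.02 between the means (adjusted p = 0.959). On medians the log2 difference was -0.73, and a rank-sum permutation test, added after the data were seen, gave p = 0.182 and an adjusted p of 0.375.

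The spread of a few other genes was also wider with the drug, given here as a description chosen after the values were seen. The SD of log2 CPM was 0.98 in treated mice and 0.50 in WTD mice for Srxn1, a ratio of 1.97, and 0.796% of all tested genes had a ratio at least as high. For Nqo1 the ratio was 2.09 (0.539% of genes) and for Txnrd1 1.70 (1.96% of genes). It was 1.31 for Gsr and 1.29 for Gclc. The median ratio over all tested genes was 0.77, and Nfe2l2, Keap1 and Gclm lay near or below it at 0.71, 0.57 and 0.82. The WTD group held 5 low-capture libraries and the treated group 1, and the ratios were not computed without them.

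The high levels came from the same mice. Srxn1 was highest in treated mice 23, 24, 25 and 22, at 469, 437, 362 and 311 CPM, followed by mouse 36 at 214 CPM. Txnrd1 was 335, 360, 318 and 280 CPM in these 4 mice, and these were the 4 highest levels of the group. Gsr (113, 122, 103 and 88.7 CPM) and Gclc (556, 657, 549 and 447 CPM) were likewise highest in them. Nqo1 was 44.6, 45.8, 35.2 and 33.6 CPM in these mice, with mouse 29, the low-capture library of the group, in between at 38.7 CPM.

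Nfe2l2, Gclm and G6pdx did not set these mice apart. Nfe2l2 (147, 170, 165 and 162 CPM), Gclm (218, 252, 225 and 240 CPM) and G6pdx (24.3, 14.3, 21.4 and 17.9 CPM) did not have their 4 highest levels there. Sod1 was 394, 395, 281 and 348 CPM. Hepatocyte markers summed to 56881, 72106, 63068 and 69131 CPM, the 4 lowest sums of the group, and stellate cell markers to 1556, 1500, 2269 and 1982 CPM. None of the 4 libraries was of low capture, and they held 16779355 to 24883551 counts. Their numbers are the 4 lowest in the treated group. The mice were housed in groups, the cages were not given in the sources used here, and a shared cage was not tested.

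**Figure D3:**
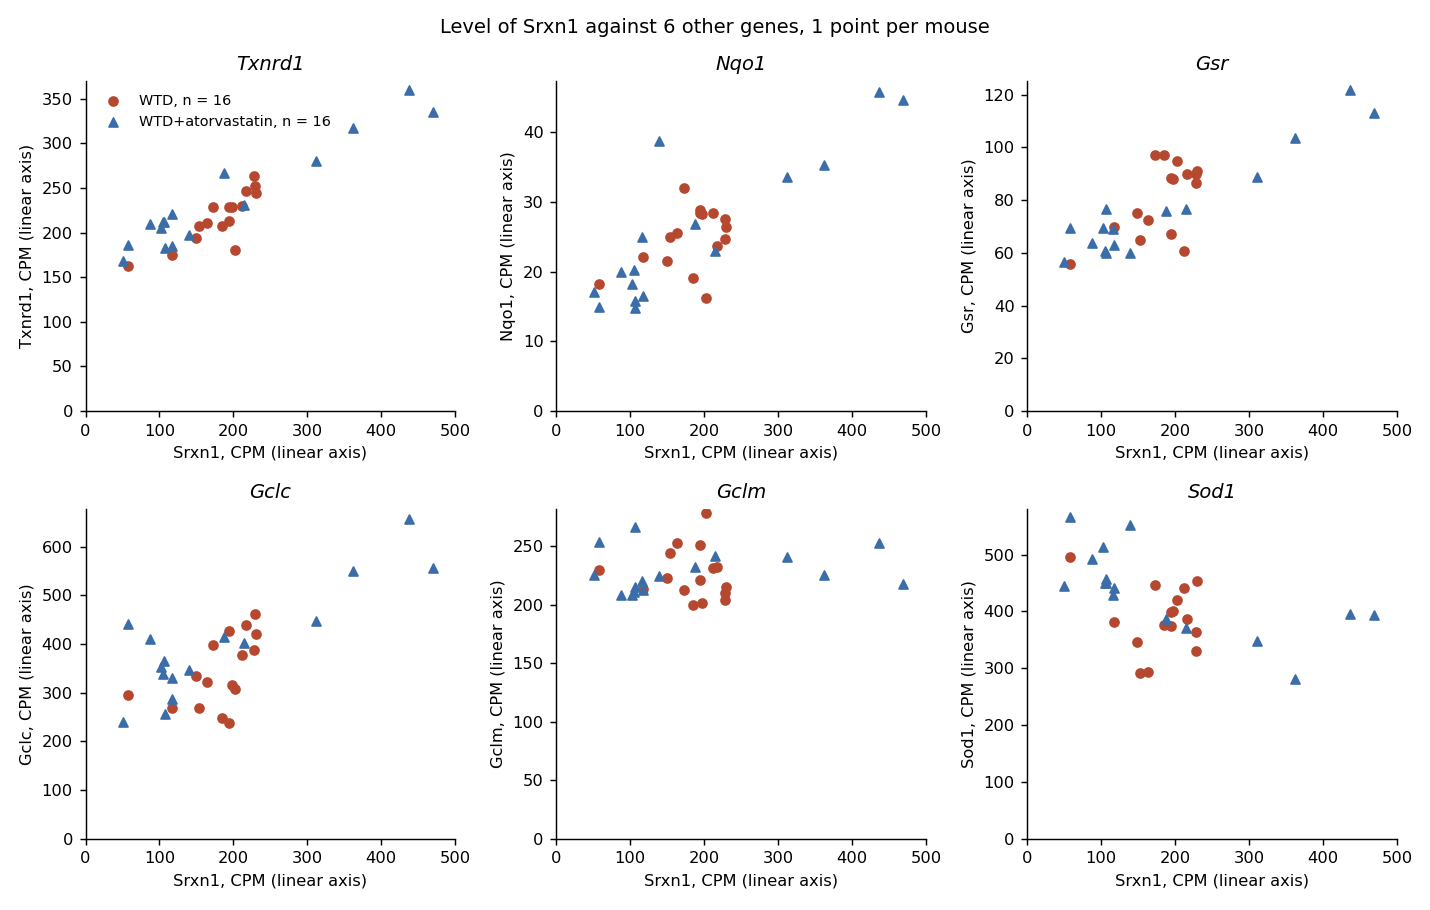
Level of Srxn1 (horizontal axis, CPM, linear) against those of Txnrd1, Nqo1, Gsr, Gclc, Gclm and Sod1 (vertical axes, CPM, linear, starting at 0) in WTD mice (circles, n = 16) and WTD+atorvastatin mice (triangles, n = 16). The 4 treated mice with Srxn1 from 311 to 469 CPM also have the 4 highest levels of Txnrd1, Gsr and Gclc, while Gclm does not follow Srxn1.

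Relations between genes were measured within each group on log2 CPM, as 195 relations adjusted together with permutation p values. Among the 45 pairs of NRF2 genes, 0 pairs on chow (n = 10), 4 pairs on WTD and 12 pairs with atorvastatin had an adjusted p under 0.05. Whether a relation differed between groups was not tested. Each r is given with its value without the 2 mice farthest from the median of the first gene of the pair. The first gene is the earlier one in the order Nfe2l2, Keap1, Nqo1, Gclc, Gclm, Txnrd1, Srxn1, Gsr, G6pdx and Sod1.

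On WTD, Txnrd1 took part in 3 of the 4 pairs. Its Pearson r was 0.81 with Srxn1 (Spearman rho 0.84, permutation p = 3e-05, adjusted p = 0.000836) and 0.67 without the 2 farthest mice. With Gclc the r was 0.67 (rho 0.71, permutation p = 0.00469, adjusted p = 0.0398) and 0.70 without the 2 mice farthest for Gclc. The relation of Txnrd1 with Nqo1 (r 0.70, rho 0.57, permutation p = 0.0028, adjusted p = 0.0287) was 0.48 without the 2 mice farthest for Nqo1. That of Srxn1 with Gsr (r 0.64, rho 0.44, permutation p = 0.00465, adjusted p = 0.0398) was 0.35 without the 2 mice farthest for Srxn1, so it rests on those mice. In the 11 WTD mice without low capture the r of Txnrd1 was 0.96 with Srxn1, 0.82 with Gclc and 0.52 with Nqo1, and that of Srxn1 with Gsr was 0.43.

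With atorvastatin, all 10 pairs among Nqo1, Gclc, Txnrd1, Srxn1 and Gsr were positive, with an adjusted p of Pearson r under 0.05. The r of Txnrd1 was 0.95 with Gsr (rho 0.89), 0.93 with Srxn1 (rho 0.80) and 0.89 with Gclc (rho 0.81). The permutation p was 1e-05 for each of these 3 pairs, the smallest that 100000 permutations can give, and the adjusted p was 0.000325. Without the 2 farthest mice these r values were 0.90, 0.89 and 0.82. The weakest of the 10 was Nqo1 with Gclc at 0.71 (rho 0.58, permutation p = 0.00203, adjusted p = 0.0231), and 0.51 without the 2 farthest mice. Nqo1 with Gsr went from 0.72 to 0.48. Without the low-capture mouse 29 the 10 r values lay between 0.77 and 0.95, and Nqo1 with Gsr was at 0.88. By Spearman rho the adjusted permutation p was 0.148 for Nqo1 with Gclc, 0.232 for Nqo1 with Gsr and 0.114 for Gclc with Srxn1. Treated mice 22, 23, 24 and 25 had the highest Srxn1, Txnrd1, Gsr and Gclc levels of the group. Relations without all of these mice were not measured, so how far the 10 pairs rest on them is not known.

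Sod1 had a negative relation under 0.05 with Srxn1 and Txnrd1, 2 of these 5 genes. Its r was -0.73 with Srxn1 (rho -0.75, permutation p = 0.00126, adjusted p = 0.0164) and -0.70 with Txnrd1 (rho -0.68, permutation p = 0.00213, adjusted p = 0.0231). Without the 2 farthest mice the values were -0.80 and -0.81. Its relations with Gsr (adjusted p = 0.0622 by permutation), Nqo1 (0.26) and Gclc (0.303) did not pass. No pair with Nfe2l2, Keap1, Gclm or G6pdx had an adjusted p under 0.05 in any group.

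Summed markers of other cells varied with some of these genes in treated mice. Stellate cell and fibroblast markers had an r of 0.88 with Srxn1 (rho 0.86, permutation p = 1e-05, adjusted p = 0.000325) and -0.92 with Sod1 (rho -0.90, permutation p = 1e-05, adjusted p = 0.000325). The r was 0.83 with Txnrd1, 0.75 with Gsr and 0.69 with Nqo1 (rho 0.78, 0.64 and 0.69, adjusted p 0.00215, 0.0149 and 0.035 by permutation). Macrophage markers had an r of 0.79 with Srxn1 (rho 0.76, permutation p = 0.00028, adjusted p = 0.00455) and -0.68 with Sod1 (rho -0.75, permutation p = 0.00333, adjusted p = 0.0325). Without the 2 mice farthest from the median of the gene, these 7 r values kept their sign, at 0.93, -0.86, 0.91, 0.83, 0.67, 0.88 and -0.61. In chow and WTD mice 0 of 20 such relations per group were under 0.05. The closest was that of Sod1 with stellate cell markers on WTD (r -0.64, rho -0.65, permutation p = 0.00736, adjusted p = 0.0598). For Srxn1 on WTD the r was 0.45 with macrophage and 0.48 with stellate cell markers. In the 11 WTD mice without low capture these 2 values turned sign, to -0.62 and -0.43. The part of these cells in the levels of the NRF2 genes was not tested.

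**Figure D4:**
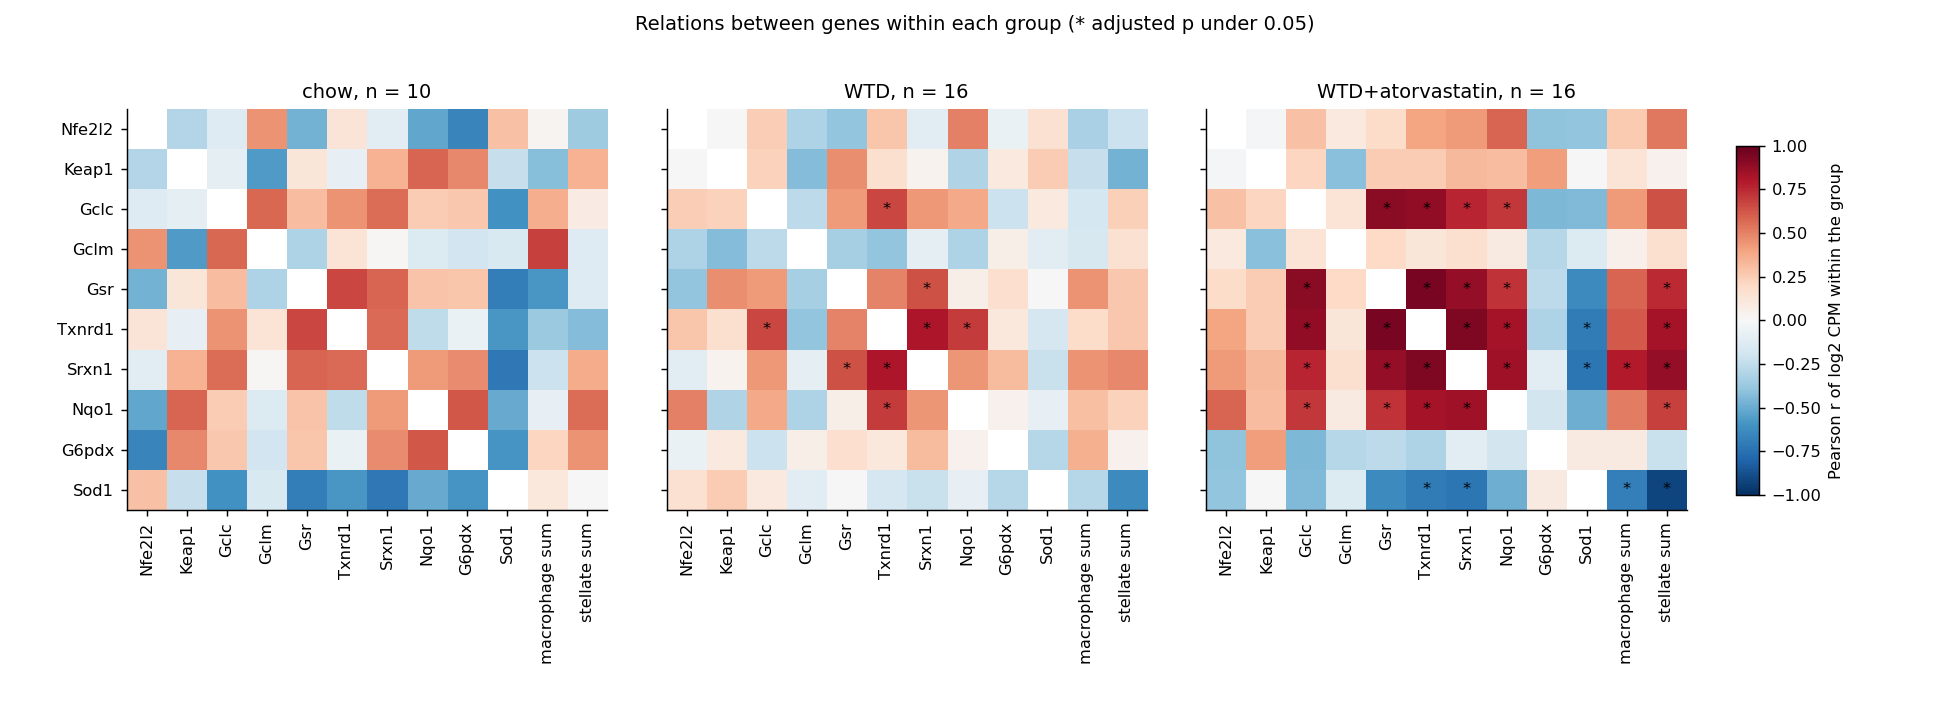
Pearson r of log2 CPM (colour, from -1 in blue to 1 in red) between the 10 genes, and with the summed macrophage and stellate cell markers, within chow (n = 10), WTD (n = 16) and WTD+atorvastatin (n = 16). Stars mark an adjusted permutation p under 0.05, and a block of Gclc, Gsr, Txnrd1, Srxn1 and Nqo1 stands out with atorvastatin.

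Over all 42 mice with group means removed, the nearest tested gene of Gclc and of Gsr was Txnrd1 (r 0.74 and 0.77), and that of Txnrd1 was Srxn1 (r 0.85). The nearest gene of Srxn1 was the glutathione S-transferase Gstm3 (r 0.91), with Txnrd1 at rank 7 of 15573 genes. Nqo1 was nearest to the keratin Krt8 (r 0.74), with Srxn1 at rank 4. Sod1 was nearest to Apoa2, a protein of high-density lipoprotein (r 0.91). Nfe2l2 was nearest to Dcakd (r 0.78) and G6pdx to the mitochondrial carrier Slc25a40 (r 0.93), and without the 9 low-capture libraries these fell to 0.67 and 0.68. The other 6 r values given here were higher without these libraries, at 0.82 for Nqo1 with Krt8, 0.85 for Gclc and 0.84 for Gsr with Txnrd1, 0.92 for Txnrd1 with Srxn1, 0.92 for Srxn1 with Gstm3 and 0.93 for Sod1 with Apoa2. Keap1 and Gclm had no gene at an r of 0.7 or more.

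WTD+atorvastatin compared with chow shows what remained of the difference under treatment, with the same chow mice as before. Nfe2l2, Nqo1, Txnrd1, Srxn1 and G6pdx were higher and Sod1 was lower, where 14.2% of all tested genes were higher and 10.7% lower. The median log2 fold change of the 10 genes was 0.42, against 0.04 over all tested genes. G6pdx (4.27-fold higher, log2 fold change 2.10, SE 0.26, adjusted p = 7.95e-09) and Sod1 (1.82-fold lower, log2 fold change -0.87, SE 0.09, adjusted p = 2.45e-11) again did not overlap with chow, as was the case for 4.37% of all tested genes. Macrophage markers were higher in 8 of 8 cases, stellate cell and fibroblast markers in 5 of 6 and cholangiocyte markers in 3 of 4. Neutrophil markers were higher in 1 of 3 tested and lymphocyte markers in 1 of 4. Endothelial markers were higher in 2 and lower in 1 of 4 cases, and hepatocyte markers were lower in 2 of 6.

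The remaining rises were 1.34-fold for Nfe2l2 (adjusted p = 3.26e-05), 1.54-fold for Txnrd1 (adjusted p = 3.77e-06) and 2.47-fold for Srxn1 (adjusted p = 0.00064). The Srxn1 fold compares means, and the difference was smaller between medians, at 117 CPM in treated mice and 65.1 CPM on chow. Its log2 fold change was 1.31 by edgeR and 0.91 with limma-voom (adjusted p = 0.00678). On medians it was 0.84 (rank-sum permutation test, adjusted p = 0.00954). In 15 of 16 treated mice Txnrd1 was above every chow mouse, and for Srxn1 this held in 9 of 16. Nqo1 was 1.54-fold higher (log2 fold change 0.62, adjusted p = 0.00203), with 14.7, 21.6 and 45.8 CPM in treated mice. Its call was lost without the low-capture libraries (adjusted p = 0.0129), in a fit of the 2 groups alone (adjusted p = 0.0113), with limma-voom (adjusted p = 0.0877) and with the rank-sum permutation test (adjusted p = 0.0631).

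Gclc and Gclm both had an adjusted p of 0.0101, just over the threshold, with log2 fold changes of 0.42 (95% interval 0.16 to 0.69) and -0.19 (95% interval -0.31 to -0.07). Of 12 alternatives, 9 called Gclm lower and 4 called Gclc higher, a threshold of 0.05 among them. DESeq2 called both (adjusted p = 0.00245 for Gclm and 0.00585 for Gclc), limma-voom called Gclm (adjusted p = 0.00138) and not Gclc (0.147), and without the low-capture libraries Gclm was called (adjusted p = 0.00434) and Gclc was not (0.0326). In this comparison DESeq2 called 17.0% of the genes it tested and limma-voom 31.9%. Leaving out 1 mouse brought Gclc under the threshold in 15 of 42 fits (adjusted p 0.0037 to 0.00985), those without chow mouse 3, 4 or 7, WTD mouse 5, 8, 10, 11 or 21, or treated mouse 27, 29, 31, 33, 34, 35 or 37. Gclm was under it in 13 of 42 fits (adjusted p 0.00307 to 0.00998), those without chow mouse 5 or 9, WTD mouse 9, 10, 11, 13, 19, 20 or 21, or treated mouse 24, 30, 36 or 37. Gclc had 240, 383 and 657 CPM in treated mice, and 8 of 16 exceeded every chow mouse. Gsr (log2 fold change 0.26, 95% interval 0.02 to 0.50, adjusted p = 0.0901) and Keap1 (0.00, 95% interval -0.16 to 0.16, adjusted p = 0.984) were not called.

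Other genes of the pathway come from 5 lists, whose counts stand beside 17.5% of all tested genes higher and 16.0% lower on WTD than on chow, and 4.84% higher and 2.26% lower with atorvastatin than on WTD. Of 10 regulators and partners of NRF2, 2 were higher and 2 lower on WTD than on chow, and 0 were called between treated and WTD mice. The small MAF proteins, which pair with NRF2 and also form repressive pairs without it, moved apart. Maff rose from 5.18 ± 2.32 CPM (SD) on chow to 14.2 ± 4.29 CPM on WTD (log2 fold change 1.46, adjusted p = 3.13e-06) and Mafk from 25.0 ± 9.10 to 41.5 ± 5.42 CPM (0.73, adjusted p = 1.31e-05). Mafg fell from 153 ± 13.9 to 115 ± 18.8 CPM (-0.42, adjusted p = 2.51e-05). With atorvastatin Mafg was at 137 ± 18.9 CPM (log2 fold change to WTD 0.25, adjusted p = 0.0127, called without WTD mouse 13 or 20 or treated mouse 22, 24, 25 or 28 at 0.00239 to 0.00885), and for Btrc, an adaptor of another ligase for NRF2, the value was 0.30 (adjusted p = 0.0603).

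Of 9 other glutathione and thioredoxin genes, 3 were higher and 1 lower on WTD, and 0 were called with atorvastatin. Slc7a11, the cystine importer, rose from 0.365 ± 0.477 to 2.62 ± 1.94 CPM (adjusted p = 0.000541). Gpx2, a glutathione peroxidase best known from the gut, was at 0.0331 ± 0.0894 CPM on chow and 1.47 ± 1.18 CPM on WTD and was called higher (adjusted p = 4.7e-05). Its chow level is close to 0, so no fold is given. Prdx6, a peroxiredoxin that acts on phospholipids, fell from 534 ± 43.4 to 391 ± 72.5 CPM (log2 fold change -0.45, adjusted p = 1.61e-05) and was at 471 ± 72.0 CPM with atorvastatin (0.27 against WTD, adjusted p = 0.0115). Without WTD mouse 20 or treated mouse 22, 23, 25 or 28 this difference was called (adjusted p 0.000224 to 0.00716).

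A list of 5 other enzymes of NADPH supply and the pentose phosphate pathway held Pgd, Taldo1, Tkt, Me1 and Idh1. Taldo1 and Tkt act in that pathway but do not make NADPH themselves. Of the 5, 2 were higher (Pgd and Tkt) and 1 lower on WTD, and 2 were higher with atorvastatin. Pgd, which follows G6pdx in the pentose phosphate pathway, rose 1.89-fold on WTD (log2 fold change 0.92, adjusted p = 1.86e-07). Idh1, the cytosolic isocitrate dehydrogenase, fell on WTD (-0.47, adjusted p = 1.06e-05) and was higher with atorvastatin than on WTD (0.35, adjusted p = 0.0012). Malic enzyme Me1 was 2.02-fold higher in treated than in WTD mice, at 362 ± 156 against 179 ± 79.0 CPM (adjusted p = 0.000423), while the log2 fold change of G6pdx in this comparison was 0.05 (adjusted p = 0.926).

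Among 13 detoxification, haem and iron targets, 3 were higher and 4 lower on WTD. Hmox1, haem oxygenase 1, rose from 28.0 ± 10.7 to 82.4 ± 30.7 CPM (log2 fold change 1.56, adjusted p = 2.58e-10), and the carbonyl reductase Cbr3 from 1.86 ± 1.57 to 21.4 ± 10.9 CPM (3.50, adjusted p = 1.71e-05). With atorvastatin 1 gene of this list was higher, the canalicular transporter Abcc2 (0.45, adjusted p = 6.87e-05), and 1 was lower, the ferritin heavy chain Fth1 (-0.22, adjusted p = 0.00591). The call of Fth1 was lost without WTD mouse 11, 13, 14 or 19 or treated mouse 26, 27, 32, 33, 35 or 37 (adjusted p 0.0101 to 0.0127).

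The 10 other antioxidant enzymes were lower on WTD in 6 cases and higher in 0, with a median log2 fold change of -0.49. Ccs, the chaperone that loads copper into Sod1, fell 2.09-fold on WTD, from 360 ± 44.2 to 172 ± 25.0 CPM (log2 fold change -1.07, adjusted p = 5.61e-15). Gpx1, the main liver glutathione peroxidase, fell by 0.72 on the log2 scale (adjusted p = 3.01e-14). With atorvastatin catalase (Cat) was higher than on WTD (0.55, adjusted p = 2.66e-05) and Gpx4 lower (-0.51, adjusted p = 6.24e-05).

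**Figure D5:**
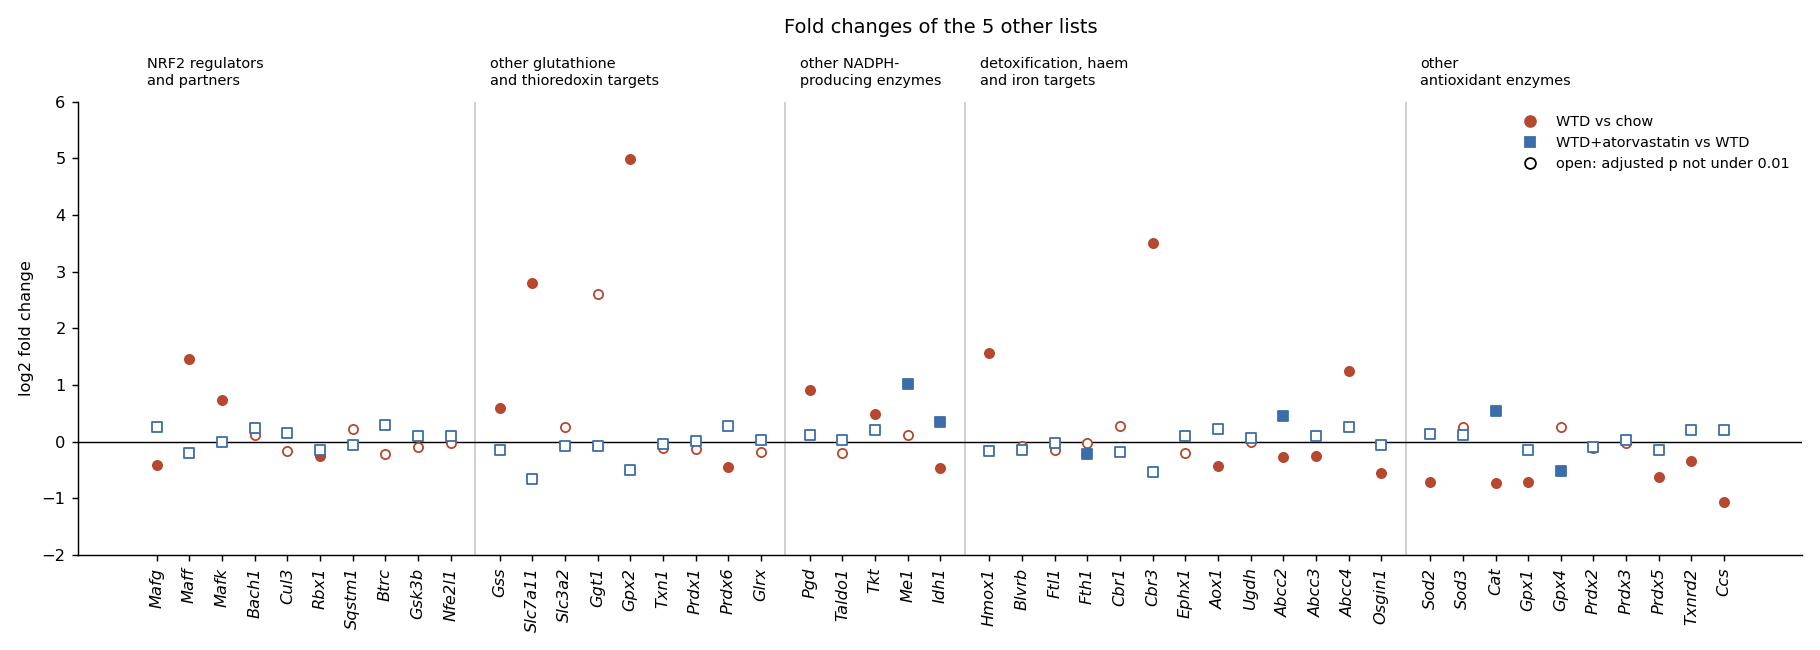
Log2 fold change (vertical axis) of each gene in the 5 other lists, for WTD against chow (circles) and WTD+atorvastatin against WTD (squares), with filled symbols at an adjusted p under 0.01. Circles of the other antioxidant enzymes lie mostly below 0, and few squares are filled in any list. The list labelled as NADPH-producing also holds Taldo1 and Tkt, which do not make NADPH themselves.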

How the data were processed

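Liver RNA of 42 mice in 3 groups, taken from the labels, was measured by bulk RNA sequencing. The authors made libraries from polyadenylated RNA, used STAR 2.5 (genome GRCm38) and HTSeq 0.6.1p1, per the labels and methods, and deposited raw counts per gene without normalization, identical in the table of all mice and in the 42 single tables. Replicates were separate mice, and no pair of libraries within a group was a duplicate. Pairs across groups were not checked. Read pairs in no gene (2.28% on average), ambiguous between genes (5.95%) or without a unique alignment (4.68%) were left out of library sizes. Symbols, positions and exon lengths came from GENCODE vM21 (54409 of 54446 identifiers found), and start regions from RefSeq.

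In R 4.3.3, edgeR 4.0.16 was run with its quasi-likelihood test (robust) in 1 fit of all 42 mice, after filterByExpr (at least 10 counts, 15 in total) and TMM scaling. The labels name no batch, and no covariate was used. Benjamini-Hochberg adjustment covered 15574 genes, and the confidence level was 95%. The SE was computed from the log2 fold change and the F statistic of the test, and the intervals from the SE and a t quantile. The steps were tested on simulated data. Relations used Pearson and Spearman coefficients of log2 CPM (prior count 2) with 100000 two-sided permutations. Permutation tests, relations and summaries used Python 3.11.15, numpy 2.4.6, pandas 2.3.3 and scipy 1.17.1, and figures matplotlib 3.10.9.

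The 10 genes, the 5 other lists and the 7 marker lists were chosen with earlier results of these data known. Named were the 10 genes, from each other list the 2 genes with the smallest p on WTD against chow and the 2 with the smallest p on WTD+atorvastatin against WTD, and for each of the 10 genes the tested gene with the highest r where r was at least 0.7. Alternatives were DESeq2 1.42.0, limma-voom (limma 3.58.1) with quality weights, other scalings, filters, thresholds and sample sets, the share of missing weak genes as a covariate, and leaving out each mouse. The rank-sum permutation test and the nearest genes without low-capture libraries were added after the data were seen.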

Additional observations from a re-analysis of the deposited data

How the results depend on the processing

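On WTD against chow, Nfe2l2, Nqo1, Txnrd1, Srxn1 and Sod1 kept direction and call under all 12 alternatives and without each of the 42 mice. G6pdx did so wherever it was tested, and the filter of at least 10 counts in every mouse removed it. The calls of Gclm, Keap1 and Gsr depended on the choices given beside them. Between 6 and 9 of the 10 genes were called, 9 with limma-voom, which called 41.8% of all tested genes.

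Between treated and WTD mice, limma-voom called 2 of the 10 genes and 3145 genes in all, an adjusted p under 0.05 called 1 and 2021, leaving out the low-capture libraries gave 1664 genes, and leaving out single mice gave 0 to 1 of the 10 genes. Small uncalled log2 fold changes turned sign. They were -0.024 for Nfe2l2, -0.029 for Gclm and -0.0052 for Srxn1 with DESeq2, and -0.025, -0.029 and -0.0049 with RLE scaling. Limma-voom gave -0.024 for Nfe2l2, -0.23 for Nqo1, -0.046 for Gclc, -0.031 for Txnrd1 and -0.45 for Srxn1. Nfe2l2 and Gclm were at -0.0099 and -0.013 with upper-quartile scaling and at -0.020 and -0.025 with at least 10 counts in every mouse. Without the low-capture libraries Nfe2l2 was at -0.037, Nqo1 at -0.080 and Srxn1 at -0.022. With the low-capture share as a covariate Srxn1 was at -0.010 and G6pdx at -0.0018. Differences of medians were -0.0020 for Nfe2l2, -0.22 for Nqo1, -0.060 for Txnrd1, -0.73 for Srxn1, -0.039 for G6pdx and 0.036 for Hmox1. Leaving out single mice gave -0.010 to 0.033 for Nfe2l2, -0.025 to 0.092 for Nqo1, -0.0013 to 0.037 for Gclm and -0.12 to 0.10 for Srxn1. The cause was not tested.

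Treated against chow, the calls of Gclc, Gclm and Nqo1 depended on the choices given beside them. Keap1 turned to 0.0062 with limma-voom, 0.012 without a filter, 0.011 with at least 10 counts in every mouse and 0.11 on medians, and ranged from -0.031 to 0.026 without single mice. On WTD against chow, the uncalled Me1 was at -0.035 with limma-voom and -0.023 on medians, and the uncalled Fth1 was at 0.015 with DESeq2, 0.015 with RLE scaling, 0.029 with at least 10 counts, 0.029 without the low-capture libraries and 0.0047 on medians.

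Of the 23 relations under 0.05, 7 were not under 0.05 by Spearman rho. Of the 10 genes G6pdx had the lowest counts on chow, 0 to 195 per mouse. No paired analysis was possible because the replicate numbers in the labels name separate mice and link no mouse of one group to a mouse of another.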

Other observations

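Among the 10 other antioxidant enzymes, the 6 that were lower on WTD were Ccs, Gpx1, Cat, Sod2, Prdx5 and Txnrd2. Sod2, the mitochondrial superoxide dismutase, fell by 0.71 on the log2 scale (adjusted p = 1.99e-09), Prdx5 by 0.63 (adjusted p = 4.83e-10) and Txnrd2, the mitochondrial thioredoxin reductase, by 0.34 (adjusted p = 0.00178), all by edgeR over all tested genes. With atorvastatin their log2 fold changes against WTD were 0.14, -0.14 and 0.21, none of them called. Gss, which completes glutathione, was higher on WTD than on chow at a log2 fold change of 0.59 (adjusted p = 0.000413). Tkt of the pentose phosphate pathway was higher on WTD at 0.48 (adjusted p = 1.18e-05), as was the exporter Abcc4 at 1.25 (adjusted p = 0.00101), while Osgin1, often listed as a target of NRF2, was lower at -0.55 (adjusted p = 0.00228). Sod2, Prdx5, Txnrd2, Gss, Tkt, Abcc4 and Osgin1 were singled out after their values were seen.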
